A study of Mus musculus with 12 samples.

Results

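The bone marrow stem and progenitor population labelled LSK was compared by bulk RNA-seq between C57BL/6 mice lacking the Cebpa enhancer that lies 42 kb downstream of the gene and mice with the wild-type enhancer. The comparison uses every LSK library of the series, 6 of 12. Replicates 1, 2 and 7 carry the enhancer deletion and replicates 1, 6 and 8 are wild type. The remaining 6 libraries are CMP, the common myeloid progenitors, of the same genotypes, with 3 libraries in each group. The submitters' labels describe LSK as haematopoietic stem cells, and record neither age nor sex, nor whether the deletion was inherited or induced, nor a treatment. They do not state that the replicates of a genotype came from separate animals, so the p-values below measure the spread between these libraries, which may in part be technical.

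LSK stands for lineage-negative, Sca-1-positive, Kit-positive cells, a sorted fraction that holds haematopoietic stem cells and multipotent progenitors. CMP are later, Sca-1-negative progenitors from which granulocytes, monocytes, megakaryocytes and red cells can arise. Cebpa encodes C/EBPα, a basic leucine zipper transcription factor that is needed for progenitors to become granulocyte and monocyte precursors and that also restrains the proliferation of stem cells. Enhancers are stretches of DNA that raise transcription of a gene from a distance, often in some cell types and not in others.

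Gene counts summed to 12906245, 6170491 and 49149674 in enhancer-null LSK and to 34080293, 14753266 and 15401802 in wild-type LSK. A count of 3, taken here as the floor, corresponds to 0.061 to 0.486 CPM (counts scaled to library depth), depending on the library. Xist and the Y-linked genes placed 3 libraries as male (replicates 1 and 2 of the enhancer-null and replicate 1 of the wild-type group) and the other 3 as female. Wild-type replicate 6 stood apart: of the genes averaging 10 CPM or more, 1.55% were at 0 in it, against 0 to 0.764% in the other 5 libraries. Pearson's correlation of log2 CPM across genes spanned 0.835 to 0.906 among enhancer-null libraries, 0.756 to 0.908 among wild-type libraries and 0.705 to 0.937 between genotypes, so the whole transcriptome did not group the libraries by genotype. The 8 LSK markers summed to 2350–2610 CPM in enhancer-null and 3080–3460 CPM in wild-type libraries, and Kit, Ly6a, Cd34 and Flt3 were present in each library. Of the other cell types, late neutrophil markers (5 of 6 matched a symbol) summed to 6.81–25.3 CPM in enhancer-null and 113–1200 CPM in wild-type libraries, with the highest sum in wild-type replicate 1. Monocyte markers, 3 of 3, summed to 23.6–88 CPM in enhancer-null and 4.96–12.4 CPM in wild-type libraries, and dendritic markers, 2 of 2, to 3.91–10.9 CPM and 23.3–42.6 CPM in the same order of genotype. Erythroid and megakaryocyte sums overlapped between genotypes, and B, T and NK, mast and stromal markers summed to at most 16.1 CPM in any library.

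Cebpa (ENSMUSG00000034957.10, mm10 chromosome 7, 35119293 to 35121928, plus strand) had 1, 0 and 15 counts in enhancer-null LSK and 226, 118 and 39 counts in wild-type LSK. Scaled for depth this is 0.0783, 0 and 0.304 CPM in enhancer-null and 6.50, 8.24 and 2.46 CPM in wild-type libraries. Every enhancer-null library lay below every wild-type library. The fitted difference was a log2 fold change of −5.24 (SE 1.76), and it did not pass the test (edgeR quasi-likelihood, Benjamini-Hochberg adjusted p = 0.5). Cebpa had passed the filter on low counts through the wild-type libraries alone. Over all the alternative settings tried its adjusted p spanned 0.0498 to 0.952, and DESeq2 was the setting that took it past the threshold. No library's Cebpa count went against its genotype label. Among the other C/EBP family members, Cebpb, an activator of stress granulopoiesis, had 480, 382 and 207 CPM in enhancer-null and 258, 159 and 281 CPM in wild-type LSK, and the genotypes overlapped. None of the 6 family members tested passed (edgeR adjusted p 0.5 to 0.915).

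Across the 11681 genes tested in LSK, 12 passed the adjusted threshold of 0.05, which is 0.103%. Of these, 9 rose in enhancer-null LSK (0.0770% of genes tested) and 3 fell (0.0257%). At an unadjusted p under 0.05 there were 928 genes, 478 higher and 450 lower in enhancer-null LSK. The genes that rose include transcription and elongation factors (Tcf7, Ctr9), granule enzymes of myeloid and mast cells (Mpo, Cpa3), an actin-severing protein (Scin), surface receptors (Itga2b, Cd48, Adgrg3) and an immediate-early gene (Ier3). Those that fell include Lmo2, a bridging subunit of stem cell transcription factor complexes, and Hk3, a hexokinase of myeloid cells. The biological coefficient of variation was 0.737, a wide spread between libraries of a genotype. The median log2 fold change over all genes tested was −0.0095, with 5762 genes positive and 5919 negative.

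The count of passing genes changed when 1 library was left out. Such a fit also has a smaller group, and the part of that in the change was not tested. The count was 1 without enhancer-null replicate 1, 1 without replicate 2 and 6 without replicate 7. It was 2, 21 and 1 without wild-type replicates 1, 6 and 8. Tcf7 passed in all 6 of these fits. The other 10 named genes each missed the threshold when enhancer-null replicate 1 or 2, or wild-type replicate 1 or 8, was left out. With the sex of each library as a covariate 3 genes passed, all higher in enhancer-null LSK: Tcf7 (edgeR adjusted p = 0.0045), Scin (0.0272) and Mpo (0.0272). Within male and within female libraries the fold change kept its direction for 11 of 11 named genes. That was fixed beforehand, because none of the 11 overlaps between genotypes, so it does not test the part of sex. Tcf7 differed by 8.26 log2 units in males (2 enhancer-null libraries, 1 wild-type) and by 7.13 in females (1 enhancer-null, 2 wild-type), on the log2(CPM + 0.5) scale, and Lmo2 by −1.70 and −1.37. Because so few genes pass, gene groups are also described by how many members had enhancer-null and wild-type libraries that did not overlap and means at least 2-fold apart. Of all genes tested, 3.92% (458) were higher and 4.90% (572) were lower in enhancer-null LSK by that measure. Each count of group members higher or lower without overlap is to be read against these shares. Left-out libraries for gene groups were chosen after seeing the data. Without wild-type replicate 1 the shares of all genes were 8.63% higher and 6.78% lower. Without wild-type replicate 6 they were 3.93% higher and 6.98% lower, and group counts without these libraries are read against those shares. With a library left out the no-overlap rule is easier to meet, so a count that holds does not show that it is stable. No enhancer-null library was left out for these counts.

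**Figure D1:**
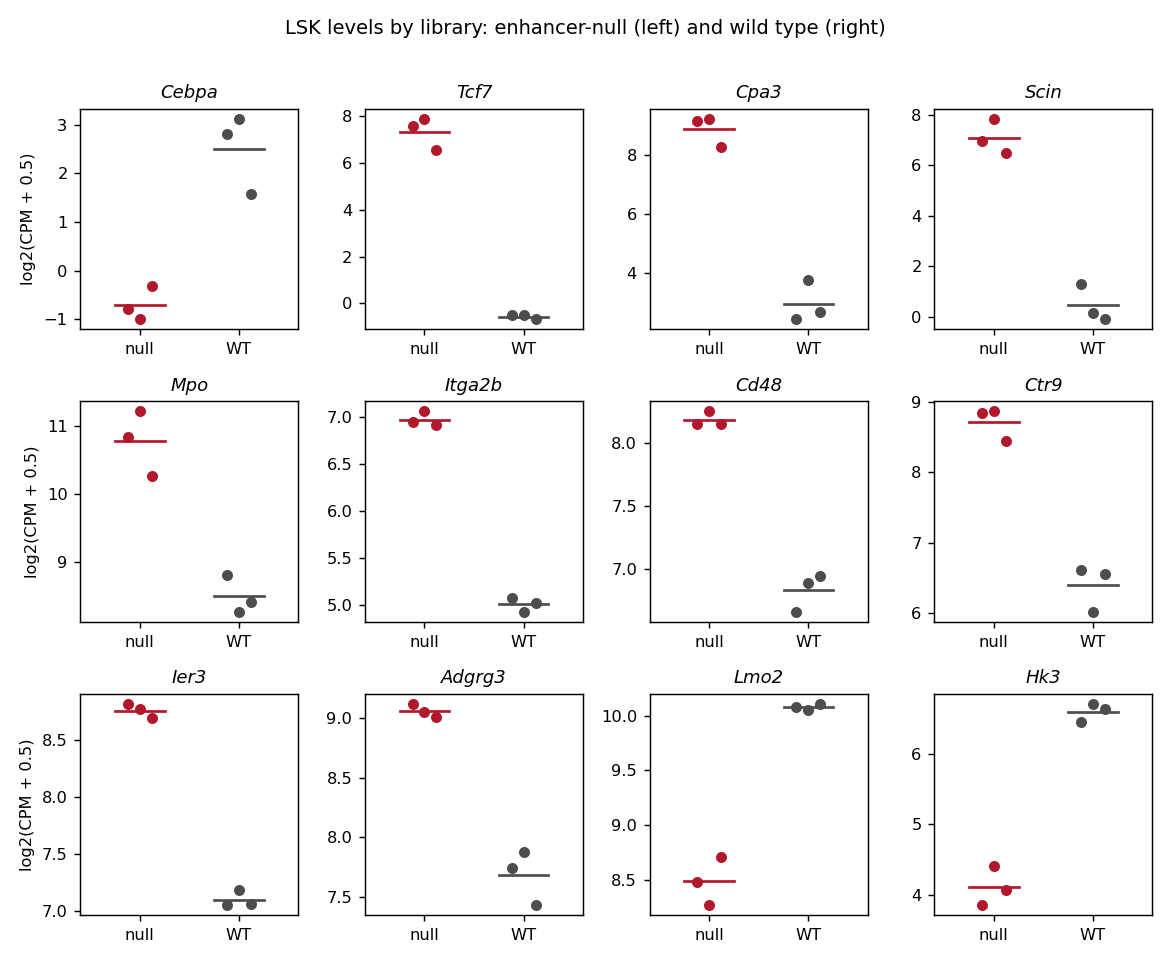
Level of Cebpa and of 11 genes past the adjusted threshold in each LSK library, as log2(CPM + 0.5) on the vertical axis; points are libraries, horizontal lines are group means, with enhancer-null LSK on the left and wild-type LSK on the right of each panel. The groups do not overlap in any panel, and Tcf7 lies at 93.1 CPM or above in enhancer-null libraries and at 0.21 CPM or below in wild-type libraries.

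Promoter sequence was available for 9 of the 11 named genes, taken as the 250 bases before the RefSeq start in GRCm38.p6. The C/EBP consensus TTGCNNAA, read on both strands, occurred in none of the 9 genes, and in 9.56% of the 32851 windows of that length across the genome's genes. The GATA motif AGATAA occurred in Cpa3 alone, against 9.99% of all windows, and the RUNX motif TGTGGT in Cd48, Cpa3 and Hk3, against 14% of all windows. Neither motif overlaps the other. The 3 promoters with a match are shown because GATA and RUNX factors act in the stem, mast and myeloid cells whose genes are described here. Capitals mark the matching bases, ACCACA being TGTGGT read on the opposite strand; in Cpa3 the GATA match starts 46 bases before the RefSeq start. A match is a string of letters in a window and does not show binding.
Cpa3 promoter, chr3:20242182-20242431, minus strand: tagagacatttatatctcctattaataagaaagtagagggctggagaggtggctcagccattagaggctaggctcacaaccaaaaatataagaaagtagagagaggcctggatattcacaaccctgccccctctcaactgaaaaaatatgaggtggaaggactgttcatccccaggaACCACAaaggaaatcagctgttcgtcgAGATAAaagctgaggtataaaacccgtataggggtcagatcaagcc
Hk3 promoter, chr13:55021386-55021635, minus strand: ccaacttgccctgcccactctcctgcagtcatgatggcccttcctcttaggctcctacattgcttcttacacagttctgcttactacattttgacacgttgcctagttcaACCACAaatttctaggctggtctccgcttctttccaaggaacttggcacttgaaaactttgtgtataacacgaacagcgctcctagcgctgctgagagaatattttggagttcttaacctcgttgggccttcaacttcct
Cd48 promoter, chr1:171681742-171681991, plus strand: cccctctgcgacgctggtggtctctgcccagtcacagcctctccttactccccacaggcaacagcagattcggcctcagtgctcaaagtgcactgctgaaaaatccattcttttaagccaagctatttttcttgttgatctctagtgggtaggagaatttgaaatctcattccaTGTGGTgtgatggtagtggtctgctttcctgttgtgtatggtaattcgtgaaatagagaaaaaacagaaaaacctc

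Tcf7 encodes TCF-1, the Wnt-pathway transcription factor that starts the T cell programme in thymic progenitors and is also used by early innate lymphoid cells. Tcf7 (ENSMUSG00000000782.15, mm10 chromosome 11, 52252371 to 52283014, minus strand) had 191, 238 and 93.1 CPM in enhancer-null LSK, against 0.201, 0.21 and 0.126 CPM in wild-type LSK. It was abundant in every enhancer-null library and close to the floor in every wild-type library. The log2 fold change was 9.85 (SE 0.56; edgeR adjusted p = 0.00301). Bcl11b, the factor that commits cells to the T lineage, differed in the same direction, with 29.3, 25 and 18.4 CPM in enhancer-null and 0.115, 0.14 and 0.0632 CPM in wild-type LSK. Its adjusted p by edgeR was 0.0521, just outside the threshold (log2 fold change 7.76, SE 0.998). Tcf7 and Bcl11b had both passed the filter on low counts through the enhancer-null libraries alone.

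Of 40 T and NK cell genes listed, 37 were matched and 24 tested. Tcf7 rose, none fell, and 15 were higher in enhancer-null LSK without overlap and by at least 2-fold, against 3.92% of all genes; none was lower. The median log2 fold change was 2.92, against −0.0095 for all genes. Of the 24, 4 passed the filter on low counts through the enhancer-null libraries alone; among the remaining 20, 11 were higher without overlap. Without wild-type replicate 1 the count was 15, and without wild-type replicate 6 it was 16.

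The members higher without overlap include regulators that T cells share with innate lymphoid cells. Id2, an inhibitor of E proteins required for innate lymphoid cells, had 145.3, 147 and 68.1 CPM in enhancer-null and 14.7, 0.698 and 6.19 CPM in wild-type LSK (edgeR adjusted p = 0.277). Zbtb16, which encodes PLZF of innate-like lymphocytes, had 34, 34.3 and 11.02 CPM in enhancer-null and 2.99, 0.0698 and 6.76 CPM in wild-type LSK. Both genes were higher in every enhancer-null library, and wild-type replicate 6 was the lowest of the 6 for each. Cd7, an early lymphoid surface protein, had 37.9, 26.8 and 19.3 CPM in enhancer-null and 2.47, 0 and 4.61 CPM in wild-type LSK. The interleukin-18 receptor gene Il18r1 had 18, 23.8 and 13.7 CPM in enhancer-null and 4.89, 0.0698 and 5.24 CPM in wild-type LSK. These too did not overlap between genotypes.

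Effector and signalling genes of the list were uneven. Gzmb, a cytotoxic granule protease, had 24.2, 80.1 and 11.2 CPM in enhancer-null and 1.29, 0.349 and 0.379 CPM in wild-type LSK (edgeR adjusted p = 0.154), and the chemokine gene Ccl5 had 58.7, 34.6 and 20.02 CPM in enhancer-null and 4.14, 4.68 and 3.85 CPM in wild-type LSK (adjusted p = 0.165). Nkg7, a granule membrane protein gene also seen in myeloid progenitors, had 285, 308 and 257 CPM in enhancer-null and 162, 78.1 and 119 CPM in wild-type LSK (adjusted p = 0.23). All 3 were higher in each enhancer-null library. Gata3, the partner of TCF-1 in T cell specification, overlapped between genotypes, at 28.1, 18.9 and 23.5 CPM in enhancer-null and 19.5, 28.2 and 40.1 CPM in wild-type LSK. Genes of the T cell receptor complex and the granzyme Gzma were at or near 0 in both genotypes: Cd3e reached 0.0203 CPM in enhancer-null and 0.173 CPM in wild-type LSK, Cd3d 0 and 0.431 CPM, and Gzma 0.851 and 0 CPM. Prf1, perforin of cytotoxic granules, was too low to be tested and lay mostly in enhancer-null replicate 1. It had 8.61, 0 and 0.831 CPM in enhancer-null and 0.0287, 0 and 0.0632 CPM in wild-type LSK. Eomes, which drives NK cell maturation, had no count in any of the 6 libraries. Summed T and NK markers, 4 of 5 matched, were 0–6.26 CPM in enhancer-null and 0–3.1 CPM in wild-type libraries. In bulk RNA, more cells of a type and more RNA per cell cannot be told apart, and that holds for each result below.

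Mast cell and actin genes gave 2 of the largest differences among the genes that passed. Cpa3, carboxypeptidase A3 of mast cell granules (ENSMUSG00000001865.2, chromosome 3, 20215620 to 20242181, minus strand), had 569, 598 and 304 CPM in enhancer-null LSK and 4.94, 13.2 and 6.00 CPM in wild-type LSK. The lowest enhancer-null library lay far above the highest wild-type library. Its log2 fold change was 5.94 (SE 0.50; edgeR adjusted p = 0.0128). A microRNA gene on the same strand, Mir7007, lies within Cpa3, so some of its reads could have been left uncounted. The Cpa3 promoter is printed above with its AGATAA match.

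Of 31 mast cell and basophil genes listed, 19 were tested: Cpa3 rose and none fell, and the median log2 fold change was 0.34. By the overlap measure 4 were higher and 1 was lower, against 3.92% and 4.90% of all genes. Without wild-type replicate 1 the number higher was 7, and without wild-type replicate 6 it was 4. The median was 0.83 and 0.65 without wild-type replicates 1 and 6, and 0.52 and 0.19 without enhancer-null replicates 1 and 2. Besides Cpa3 and Gzmb these were Il1rl1, the interleukin-33 receptor, and Itgb7, an integrin of mast cell and lymphocyte homing. Itgb7 had 338, 239 and 152 CPM in enhancer-null and 72.0, 51.8 and 64.9 CPM in wild-type LSK (log2 fold change 1.95, SE 0.32; edgeR adjusted p = 0.111). The member lower without overlap was the chemokine gene Ccl3, given below. Mast cell and basophil genes of low level were uneven. Ms4a2, the beta chain of the IgE receptor, reached 0.497 CPM in enhancer-null and 0.0287 CPM in wild-type LSK. The chymase gene Cma1 reached 0.182 CPM in enhancer-null and 0.0862 CPM in wild-type LSK, and the tryptase gene Tpsab1 had 0.0203 CPM in enhancer-null replicate 7 and no count elsewhere. Mcpt8, a basophil protease, had 0.313, 9.11 and 2.29 CPM in enhancer-null and 2.64, 0 and 0.19 CPM in wild-type LSK, and Fcer1a, the alpha chain of the IgE receptor, had 0, 3.31 and 3.79 CPM in enhancer-null and 0.431, 0 and 0 CPM in wild-type LSK. The tryptase gene Tpsb2 and Tph1, which makes serotonin in mast cells, had counts in enhancer-null replicate 7 alone, at 0.892 and 3.69 CPM.

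Scin, scinderin, severs and caps actin filaments in secretory cells (ENSMUSG00000002565.16, chromosome 12, 40059769 to 40134228, minus strand). It had 122, 229 and 87.9 CPM in enhancer-null LSK and 1.98, 0.628 and 0.442 CPM in wild-type LSK. All wild-type libraries were low and all enhancer-null libraries high. The log2 fold change was 7.08 (SE 0.75; edgeR adjusted p = 0.0394). Gsn, gelsolin, the related actin-severing protein, had 117, 96.2 and 63.6 CPM in enhancer-null and 36.0, 54.7 and 33.7 CPM in wild-type LSK (log2 fold change 1.15, SE 0.34; adjusted p = 0.413). It was higher in each enhancer-null library but did not pass. Scin was the 1 member to rise among 13 tested gelsolin and actin regulators, and 2 were higher without overlap, against 3.92% of all genes. The 2 include Scin itself, and the list was chosen with earlier results known, so its share is not a test of the family.

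Granulocyte genes did not share a direction. Mpo, myeloperoxidase, is the enzyme of primary granules made by the earliest granulocyte precursors (ENSMUSG00000009350.13, chromosome 11, 87793581 to 87804413, plus strand). Mpo had 1822, 2365 and 1225 CPM in enhancer-null LSK and 448, 306 and 340 CPM in wild-type LSK. The genotypes were well separated, with a log2 fold change of 2.31 (SE 0.26; edgeR adjusted p = 0.0398). Of 17 primary granule genes tested, Mpo rose and none fell, and the median log2 fold change was −0.28. By the overlap measure 3 were higher and 2 lower, against 3.92% and 4.90% of all genes. Without wild-type replicate 1 the number higher was 6 and the median turned to 0.027; with any other library left out the median stayed between −0.23 and −0.088. Plac8, a gene of early myeloid and lymphoid progenitors, had 987, 1061 and 660.2 CPM in enhancer-null and 340, 399 and 368 CPM in wild-type LSK (log2 fold change 1.29, SE 0.19; edgeR adjusted p = 0.0882). In the other direction, Lyz2, lysozyme, had 96.8, 74.5 and 104 CPM in enhancer-null and 258, 205 and 122 CPM in wild-type LSK (log2 fold change −1.08, SE 0.30; adjusted p = 0.385). Prtn3, proteinase 3, made with Mpo in primary granules, had 168, 162 and 99.6 CPM in enhancer-null and 178, 176 and 195 CPM in wild-type LSK. Prtn3 was thus lower in every enhancer-null library, by less than 2-fold on average. Elane, neutrophil elastase, had 0.313, 11.9 and 0.0203 CPM in enhancer-null and 85.7, 17.2 and 11.8 CPM in wild-type LSK, where enhancer-null replicate 2 reached the lowest wild-type value.

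Genes of late neutrophils, which store antimicrobial proteins in secondary granules, were lower in enhancer-null LSK. Of 15 tested none passed edgeR, and the median log2 fold change was −3.70. By the overlap measure 7 were lower and 1 higher, against 4.90% and 3.92% of all genes. Of the 15, 2 passed the filter through the wild-type libraries alone, Camp among them. Among the other 13, 5 were lower. Camp, cathelicidin, had 0.391, 0.166 and 0.345 CPM in enhancer-null LSK and 145.4, 20.8 and 12.8 CPM in wild-type LSK (log2 fold change −7.52, SE 1.22; edgeR adjusted p = 0.111). S100a9, the calprotectin subunit, had 0.861, 0.994 and 2.25 CPM in enhancer-null and 310, 64.1 and 16.5 CPM in wild-type LSK (adjusted p = 0.137). In both genes wild-type replicate 1 was several times higher than the other wild-type libraries, and the 3 enhancer-null libraries were alike. The level of the whole list was 329, 337 and 316 CPM in enhancer-null and 1711, 529.9 and 351 CPM in wild-type libraries. Without wild-type replicate 1, 7 members were lower without overlap and the median was −2.33, and without wild-type replicate 6 there were 9. The part of mature neutrophil RNA in this difference was not tested. The member that was higher, Itgam, the CD11b integrin chain of myeloid cells, had 134, 130 and 82.5 CPM in enhancer-null and 36.2, 5.87 and 25.5 CPM in wild-type LSK (edgeR adjusted p = 0.343).

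Other myeloid genes were split in the same manner. Of 14 tested genes known from the literature as C/EBPα targets, 1 rose (Mpo) and 1 fell (Hk3), and the median log2 fold change was −0.72. By the overlap measure 3 were higher and 3 were lower, against 3.92% and 4.90% of all genes. Of the 3 lower, 1 had passed the filter on low counts through the wild-type libraries alone. Csf1r, the macrophage colony-stimulating factor receptor, had 82.7, 41.2 and 22.9 CPM in enhancer-null and 10.3, 4.96 and 6.06 CPM in wild-type LSK (log2 fold change 2.78, SE 0.63; edgeR adjusted p = 0.252). Irf8, the factor that directs monocyte and dendritic cell development, had 150, 171 and 57.9 CPM in enhancer-null and 27.1, 54.7 and 65.7 CPM in wild-type LSK, and the genotypes overlapped because of enhancer-null replicate 7. Csf1r makes up most of the monocyte marker sum given above; the other monocyte markers were low, Cd14 reaching 5.17 CPM in enhancer-null and 1.32 CPM in wild-type LSK and Ly86 reaching 0.73 and 1.52 CPM. Of 13 dendritic cell genes tested, 3 were higher and 4 lower without overlap, against 3.92% and 4.90% of all genes. Among those lower were genes of MHC class II antigen presentation. Cd74, the invariant chain, had 44.6, 14.1 and 29.6 CPM in enhancer-null and 157, 142 and 122 CPM in wild-type LSK (log2 fold change −2.25, SE 0.42; adjusted p = 0.145). H2-Ab1, a class II beta chain, had 29.0, 26.2 and 34.1 CPM in enhancer-null and 74.6, 70.7 and 70.7 CPM in wild-type LSK (log2 fold change −1.27, SE 0.28; adjusted p = 0.234). In both genes all enhancer-null libraries lay below all wild-type libraries. The dendritic marker sum above is nearly all H2-Aa, itself a class II gene, at 3.91, 10.9 and 5.45 CPM in enhancer-null and 41.3, 30.2 and 23.3 CPM in wild-type LSK; the other marker, Siglech, reached 2.23 CPM in enhancer-null and 1.35 CPM in wild-type LSK.

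Lmo2 bridges the TAL1 and GATA factors on DNA and is needed for blood stem cells to form (ENSMUSG00000032698.15, chromosome 2, 103957986 to 103981878, plus strand). It had 356, 308 and 417 CPM in enhancer-null LSK and 1080, 1062 and 1102 CPM in wild-type LSK. Each enhancer-null library lay at well under the lowest wild-type value, and the wild-type libraries were nearly equal. The log2 fold change was −1.59 (SE 0.13; edgeR adjusted p = 0.0128). Of 14 tested genes for stem cell transcription factor complexes, Lmo2 was the 1 to fall and the 1 to be lower without overlap; none was higher. Its partner Tal1 overlapped between genotypes, with 67.1, 35.1 and 31.4 CPM in enhancer-null and 35.4, 22.8 and 31.5 CPM in wild-type LSK. Gata2 was lower in every enhancer-null library, by less than 2-fold, with 164, 181 and 166 CPM in enhancer-null and 212, 310 and 197 CPM in wild-type LSK. Erg, an ETS factor of the same complexes, had 60.7, 64.9 and 56.7 CPM in enhancer-null and 50.1, 38.1 and 96.3 CPM in wild-type LSK.

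Of 37 tested genes that mark haematopoietic stem cells, 2 fell, Lmo2 among them, and none rose. By the overlap measure 17 were lower and 3 higher in enhancer-null LSK, against 4.90% and 3.92% of all genes, and the median log2 fold change was −1.07. Of the 17 lower, 1 had passed the filter on low counts through the wild-type libraries alone. Without wild-type replicate 1 the number lower was 18, and without wild-type replicate 6 it was 17. Hlf, a transcription factor of quiescent stem cells, had 30.2, 51.0 and 113 CPM in enhancer-null and 437, 388 and 488 CPM in wild-type LSK (log2 fold change −2.75, SE 0.46; edgeR adjusted p = 0.112). Mecom, the EVI1 locus, had 15.5, 0.331 and 10.1 CPM in enhancer-null and 58.0, 27.0 and 37.3 CPM in wild-type LSK (adjusted p = 0.66). Both genes lay lower in each enhancer-null library, with wide spread among them. Ndn, a growth suppressor of quiescent stem cells, had 0, 0 and 1.32 CPM in enhancer-null and 23.5, 35.7 and 30.9 CPM in wild-type LSK (adjusted p = 0.378). Procr, which encodes the stem cell surface protein EPCR, had 6.81, 0 and 7.84 CPM in enhancer-null and 43.7, 8.52 and 18.4 CPM in wild-type LSK (adjusted p = 0.75). Wild-type replicate 6 came close to the enhancer-null range for Procr.

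The 3 stem cell genes higher without overlap were Mycn, Gfi1b and Slamf1. Mycn, which with Myc supports stem cell proliferation and survival, had 304, 301 and 369 CPM in enhancer-null and 148, 148 and 169 CPM in wild-type LSK (log2 fold change 1.07, SE 0.16; edgeR adjusted p = 0.0918). Gfi1b, a repressor that restrains stem cells and drives erythroid and megakaryocyte fate, had 81.7, 43.6 and 61.3 CPM in enhancer-null and 18.5, 26.3 and 16.2 CPM in wild-type LSK (adjusted p = 0.30). Slamf1, the CD150 stem cell marker, had 28.7, 2.48 and 2.53 CPM in enhancer-null and 0.949, 0 and 2.15 CPM in wild-type LSK, so its difference rests on enhancer-null replicate 1. The genes of the sort gate themselves differed little. Kit had 687, 824 and 663 CPM in enhancer-null and 742, 892 and 741 CPM in wild-type LSK, Ly6a, which encodes Sca-1, had 202, 199 and 144.6 CPM and 148, 134 and 176 CPM in the same order of genotype, and both overlapped.

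Hox genes of the A cluster and their partners set the self-renewal of early progenitors. Of 17 tested Hox, Meis and Pbx genes none passed edgeR (adjusted p 0.111 to 0.988). A negative fold change was seen in 16, and the median log2 fold change was −1.87. By the overlap measure 7 were lower and none higher, against 4.90% and 3.92% of all genes. Without wild-type replicate 1 the number lower was 11, and without wild-type replicate 6 it was 8. Hoxa9 had 91.3, 54.5 and 105 CPM in enhancer-null and 246, 275 and 248 CPM in wild-type LSK (log2 fold change −1.61, SE 0.26; adjusted p = 0.111). Hoxa10 had 3.60, 6.46 and 10.9 CPM in enhancer-null and 40.3, 25.3 and 45.2 CPM in wild-type LSK (adjusted p = 0.331). Hoxa5 had 3.99, 1.66 and 6.99 CPM in enhancer-null and 44.1, 92.9 and 17.4 CPM in wild-type LSK (adjusted p = 0.26). The 3 Hoxa genes did not overlap between genotypes. Meis1, a Hox cofactor, had 236, 212 and 256 CPM in enhancer-null and 331, 548 and 492 CPM in wild-type LSK (log2 fold change −0.96, SE 0.21; adjusted p = 0.218).

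**Figure D2:**
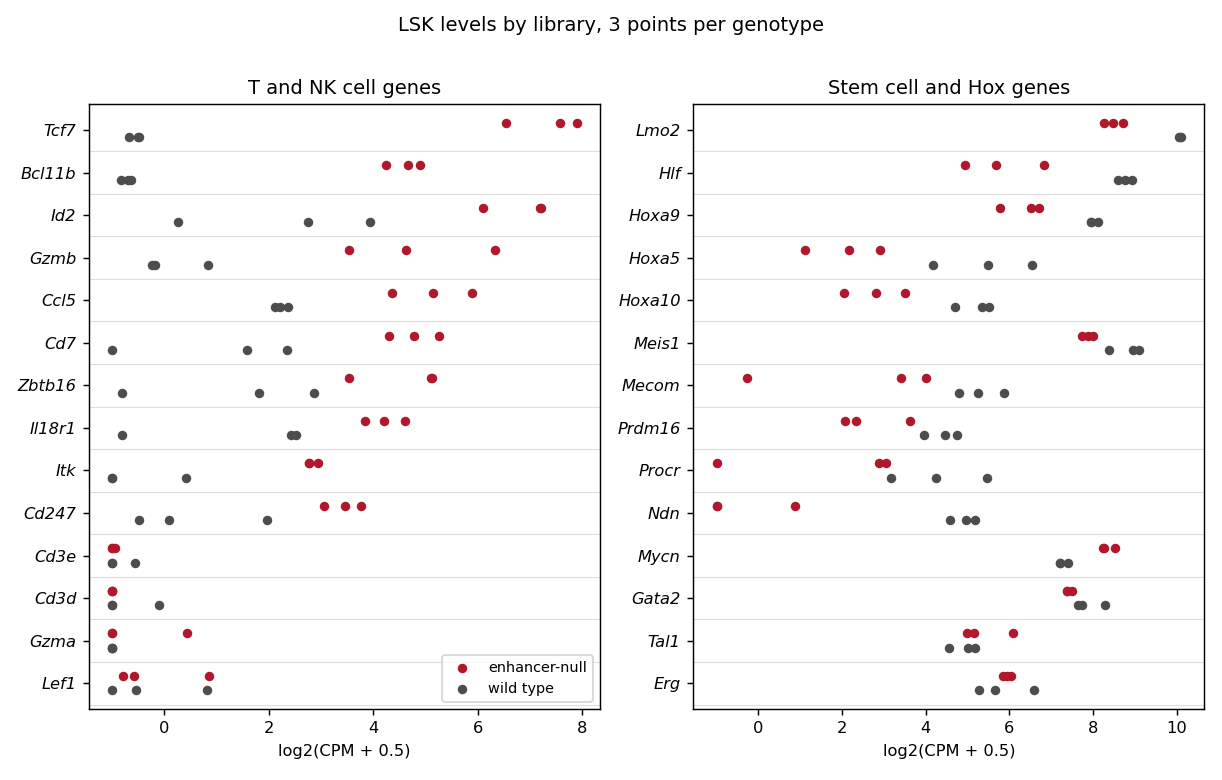
Level of T and NK cell genes and of stem cell and Hox genes in each LSK library, as log2(CPM + 0.5) on the horizontal axis. Each row is a gene and points are libraries, with enhancer-null LSK above and wild-type LSK below within a row. Grey lines separate the rows. Id2 and Ccl5 are higher in every enhancer-null library while Cd3e, Cd3d and Gzma stay near 0, and Hlf and Hoxa9 are lower in every enhancer-null library.

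Itga2b and Cd48, surface receptors used to separate kinds of early progenitor, rose. Itga2b, the CD41 integrin chain known from megakaryocytes, is also found on early progenitors (ENSMUSG00000034664.13, chromosome 11, 102453297 to 102470122, minus strand). It had 123, 133 and 120 CPM in enhancer-null LSK and 33.3, 29.95 and 32.2 CPM in wild-type LSK. The libraries of each genotype were nearly equal and the genotypes were far apart, with a log2 fold change of 1.98 (SE 0.23; edgeR adjusted p = 0.0431). Megakaryocyte marker sums overlapped between genotypes, at 6.65–35.2 CPM in enhancer-null and 17.5–25.1 CPM in wild-type libraries. Cd48, a SLAM family receptor of multipotent progenitors that is scarce on stem cells, was similar (ENSMUSG00000015355.13, chromosome 1, 171682009 to 171705258, plus strand). Cd48 had 284, 305 and 285 CPM in enhancer-null LSK and 100.1, 118 and 122 CPM in wild-type LSK, with no overlap. Its log2 fold change was 1.36 (SE 0.16; adjusted p = 0.0431), and its promoter is among those printed above.

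Of 6 tested genes for the SLAM family and its adaptors, Cd48 rose and none fell. By the overlap measure 4 were higher and 1 lower, against 3.92% and 4.90% of all genes. Of the 4 higher, 1 had passed the filter on low counts through the enhancer-null libraries alone. The 4 include Cd48 itself. The list was chosen with earlier results of these data known, so its share is not a test of the family. Cd244, the receptor for CD48, had 93.1, 146 and 99.7 CPM in enhancer-null and 35.4, 65.6 and 8.72 CPM in wild-type LSK (edgeR adjusted p = 0.60). Sh2d1b1, the adaptor EAT-2, had 21.1, 10.1 and 5.05 CPM in enhancer-null and 0.115, 0 and 0 CPM in wild-type LSK (adjusted p = 0.28). Ly9, the CD229 receptor, was the member lower, with 13.5, 6.13 and 23.7 CPM in enhancer-null and 56.5, 62.6 and 45.0 CPM in wild-type LSK (adjusted p = 0.387).

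Adgrg3, an adhesion G protein-coupled receptor of granulocytes (ENSMUSG00000060470.7), had 554, 528 and 514 CPM in enhancer-null LSK and 213, 234 and 172 CPM in wild-type LSK. The values were tight within each genotype and did not overlap (log2 fold change 1.37, SE 0.15; edgeR adjusted p = 0.0398). Of 8 tested adhesion G protein-coupled receptors, Adgrg3 rose and none fell. By the overlap measure 2 were higher and 1 lower, against 3.92% and 4.90% of all genes. Adgrg5, its close relative, was the other one higher, with 20.6, 12.4 and 3.87 CPM in enhancer-null and 0.115, 0 and 0.0632 CPM in wild-type LSK (adjusted p = 0.25). Adgrg5 had passed the filter on low counts through the enhancer-null libraries alone. The 2 higher include Adgrg3 itself, and the list was chosen with earlier results known, so its share is not a test of the family.

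Ctr9 is a scaffold subunit of the PAF1 complex, which travels with RNA polymerase II and directs histone marks during elongation (ENSMUSG00000005609.16, chromosome 7, 111028951 to 111056377, plus strand). Ctr9 had 459.7, 465 and 347 CPM in enhancer-null LSK and 97.2, 64.2 and 94.0 CPM in wild-type LSK. Every enhancer-null library was several times above the wild-type range. The log2 fold change was 2.31 (SE 0.22; edgeR adjusted p = 0.0266). It was the only one of the 6 PAF1 complex genes tested to pass or to separate the genotypes by the overlap measure, and the median log2 fold change of the 6 was 0.042.

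Hk3 encodes hexokinase 3, which phosphorylates glucose in granulocytes and monocytes (ENSMUSG00000025877.14, chromosome 13, 55005985 to 55021385, minus strand). It had 14.0, 20.7 and 16.2 CPM in enhancer-null LSK and 87.6, 104 and 99.3 CPM in wild-type LSK. The genotypes were widely separated, with a log2 fold change of −2.52 (SE 0.30; edgeR adjusted p = 0.0431). Unc5a overlaps Hk3 on the opposite strand, and whether counting used strand is not given in the sources used here, so reads of the pair may be shared or left out. Of 26 glycolysis genes tested Hk3 alone fell, and the median log2 fold change was −0.070. By the overlap measure 2 were lower and none higher, against 4.90% and 3.92% of all genes. The second was Ldhb, a lactate dehydrogenase subunit, with 31.5, 25.8 and 31.3 CPM in enhancer-null and 114, 152 and 92.0 CPM in wild-type LSK (log2 fold change −2.02, SE 0.29; adjusted p = 0.0784).

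Ier3 is an immediate-early gene that limits apoptosis downstream of stress and cytokine signals (ENSMUSG00000003541.6, chromosome 17, 35821684 to 35822923, plus strand). It had 451, 438 and 414 CPM in enhancer-null LSK and 132, 144.6 and 133 CPM in wild-type LSK. Values within a genotype were nearly equal and the genotypes did not overlap (log2 fold change 1.67, SE 0.14; edgeR adjusted p = 0.0128). Egr1, a zinc finger immediate-early gene, had 335, 338 and 585 CPM in enhancer-null and 832, 812 and 584 CPM in wild-type LSK, where enhancer-null replicate 7 met the lowest wild-type library.

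Of 37 cytokine signalling genes tested none passed edgeR (adjusted p 0.052 to 0.991). By the overlap measure 3 were higher and 3 lower, against 3.92% and 4.90% of all genes. The median log2 fold change was 0.35, or 0.16 when enhancer-null replicate 2 and 0.21 when wild-type replicate 6 was left out. Pim2, a survival kinase induced by cytokines, had 223, 156 and 176 CPM in enhancer-null and 42.9, 52.7 and 56.3 CPM in wild-type LSK (log2 fold change 1.87, SE 0.23; adjusted p = 0.052). Cish and Socs3 encode feedback inhibitors of JAK–STAT signalling. Cish had 10.9, 7.78 and 13.5 CPM in enhancer-null and 71.0, 54.3 and 44.9 CPM in wild-type LSK (adjusted p = 0.127). Socs3 went the other way, with 505, 614 and 544 CPM in enhancer-null and 70.1, 11.03 and 119 CPM in wild-type LSK (adjusted p = 0.277). All 3 genes separated the genotypes without overlap. Ccl3, a chemokine of myeloid and mast cells, had 60.4, 78.7 and 73.3 CPM in enhancer-null and 234, 306 and 203 CPM in wild-type LSK (log2 fold change −1.81, SE 0.23; adjusted p = 0.052).

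Lymphoid priming genes showed little separation as a list. Of 25 tested none passed edgeR, and 2 were higher and 2 lower without overlap, against 3.92% and 4.90% of all genes. The median log2 fold change was −0.13. It was −0.37 and −0.40 without enhancer-null replicates 1 and 7, and −0.21 and −0.22 without wild-type replicates 6 and 8. Dntt, the terminal transferase of early lymphoid progenitors, had 1482, 767 and 1385 CPM in enhancer-null and 427, 625 and 428 CPM in wild-type LSK (log2 fold change 1.30, SE 0.27; adjusted p = 0.199). Ltb, lymphotoxin beta, had 32.7, 45.4 and 40.1 CPM in enhancer-null and 168, 116 and 113 CPM in wild-type LSK (log2 fold change −1.75, SE 0.28; adjusted p = 0.11). Neither gene overlapped between genotypes, and both were named because they are among the list's members with the smallest p. Of 7 B cell genes tested none passed and 1 was lower without overlap, and that gene had passed the filter on low counts through the wild-type libraries alone. It was Bank1, a B cell scaffold protein, which summed to 2 counts over the enhancer-null libraries and 758 counts over the wild-type libraries, a level 398-fold higher in wild type (95% counting interval 110 to 3290, which covers counting error only).

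Several groups showed little separation. Of 79 ribosomal protein genes none passed edgeR and none separated the genotypes by the overlap measure, and the median log2 fold change was −0.20, with 72 of 79 negative. Of 25 erythroid genes none passed and none separated. Of 38 genes of the G2 phase and mitosis none passed, none was higher and 1 was lower without overlap (median −0.40). Among 50 interferon response genes none passed, and 1 was higher and 3 were lower (median −0.34), against 3.92% and 4.90% of all genes. Without wild-type replicate 6 the ribosomal median was −0.098 and the interferon median −0.13. Cdk6, a kinase that brings progenitors into cycle, had 149, 201 and 113 CPM in enhancer-null and 52.1, 12.1 and 45.6 CPM in wild-type LSK (edgeR adjusted p = 0.331). Trib3, a pseudokinase of the stress response, had 1 count over the enhancer-null libraries and 1069 counts over the wild-type libraries. This is a level 1120-fold higher in wild type (95% counting interval 201 to 44400). Its adjusted p by edgeR was 0.0784. Trib3 had passed the filter on low counts through the wild-type libraries alone.

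**Figure D3:**
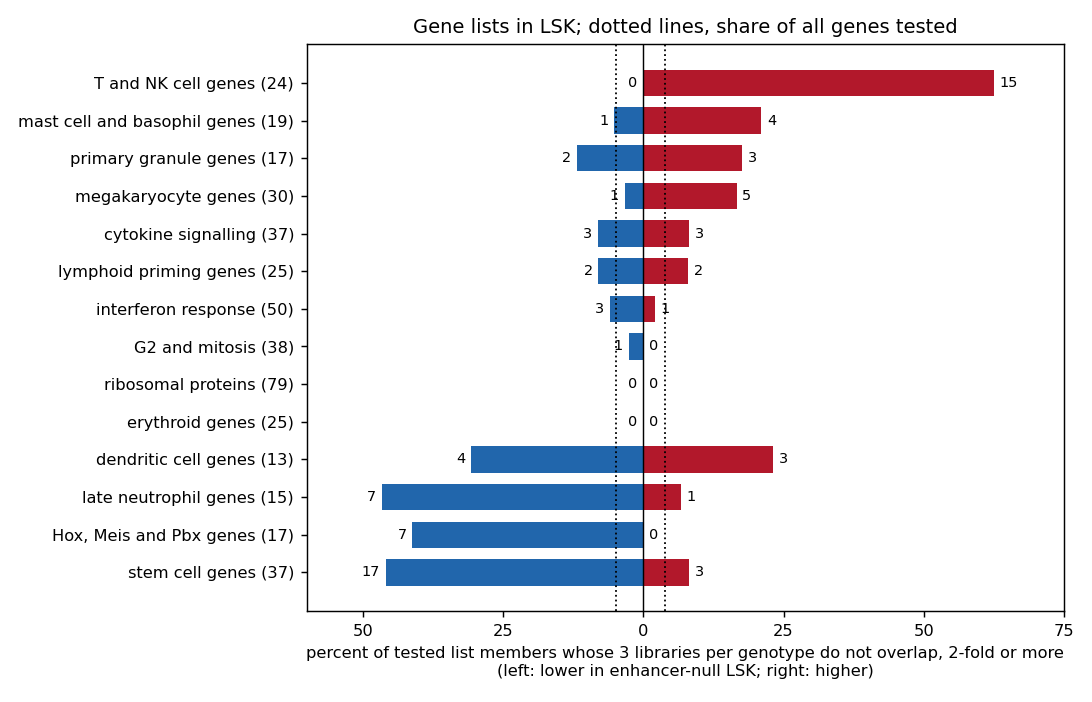
Percent of the tested members of each gene list that were higher or lower in enhancer-null LSK without overlap between libraries and with means at least 2-fold apart; numbers give the count and dotted lines the percent over all genes, 3.92% higher and 4.90% lower. The T and NK cell list has 15 of 24 members higher, and the stem cell list has 17 of 37 members lower. These counts include members that passed the filter on low counts only through the genotype where they are high. Without such members, 11 of 20 T and NK cell genes were higher and 16 of 36 stem cell genes were lower.

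The CMP libraries allowed a test of whether the genotype effect differed between LSK and CMP, fitted over all 12 libraries on 22779 shared symbols. The effect differed for 36 of 12411 genes tested (0.290%), 9 with a higher and 27 with a lower fold change in LSK than in CMP. Fold changes and CPM in the rest of this paragraph come from that fit. Tcf7 averaged 171 ± 71.8 CPM in enhancer-null LSK and 0.18 ± 0.047 CPM in wild-type LSK, and 152 ± 16.7 CPM in enhancer-null CMP and 17.5 ± 3.46 CPM in wild-type CMP (SD, n = 3 each). The enhancer-null levels were thus alike in the 2 populations, while wild-type LSK was far below wild-type CMP. The Tcf7 fold change was larger in LSK by 6.70 log2 units (SE 0.55; edgeR adjusted p = 0.000207). Mpo averaged 1772 ± 550.3 CPM in enhancer-null LSK and 367 ± 72.0 CPM in wild-type LSK, and 2813 ± 461 CPM in enhancer-null CMP and 4532 ± 365 CPM in wild-type CMP. The signs were opposite, with log2 fold changes of 2.27 in LSK and −0.69 in CMP, a difference of 2.96 (SE 0.30; adjusted p = 0.000727), although the CMP value on its own did not pass (adjusted p = 0.13).

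The myeloid regulators Irf8 and Csf1r also had fold changes of opposite sign in LSK and CMP. Irf8 averaged 124 ± 58.7 CPM in enhancer-null LSK and 49.6 ± 20.2 CPM in wild-type LSK, and 79.0 ± 6.69 CPM in enhancer-null CMP and 504 ± 102 CPM in wild-type CMP (SD, n = 3 each). The Irf8 log2 fold changes were 1.32 in LSK and −2.67 in CMP (difference 4.0, SE 0.55; edgeR adjusted p = 0.00974). For Csf1r they were 2.75 in LSK and −3.03 in CMP (difference 5.77, SE 0.89; adjusted p = 0.0192). The LSK values on their own did not pass (adjusted p = 0.318 for Irf8 and 0.143 for Csf1r), while the CMP values did (0.0037 and 0.0282). For both genes wild-type CMP held the highest mean of the 4 groups. Ier3 was higher in enhancer-null cells of both populations, with log2 fold changes of 1.63 in LSK and 3.20 in CMP (difference −1.57, SE 0.25; adjusted p = 0.0205). For Cpa3 the fold changes were 5.90 in LSK and 4.74 in CMP, for Scin 7.0 and 8.30, for Itga2b 1.94 and 2.54, for Hk3 −2.55 and −5.27, and for Lmo2 −1.62 and −0.87. None of these 5 differences passed (adjusted p 0.32 to 0.889), which does not show that the effects are equal.

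**Figure D4:**
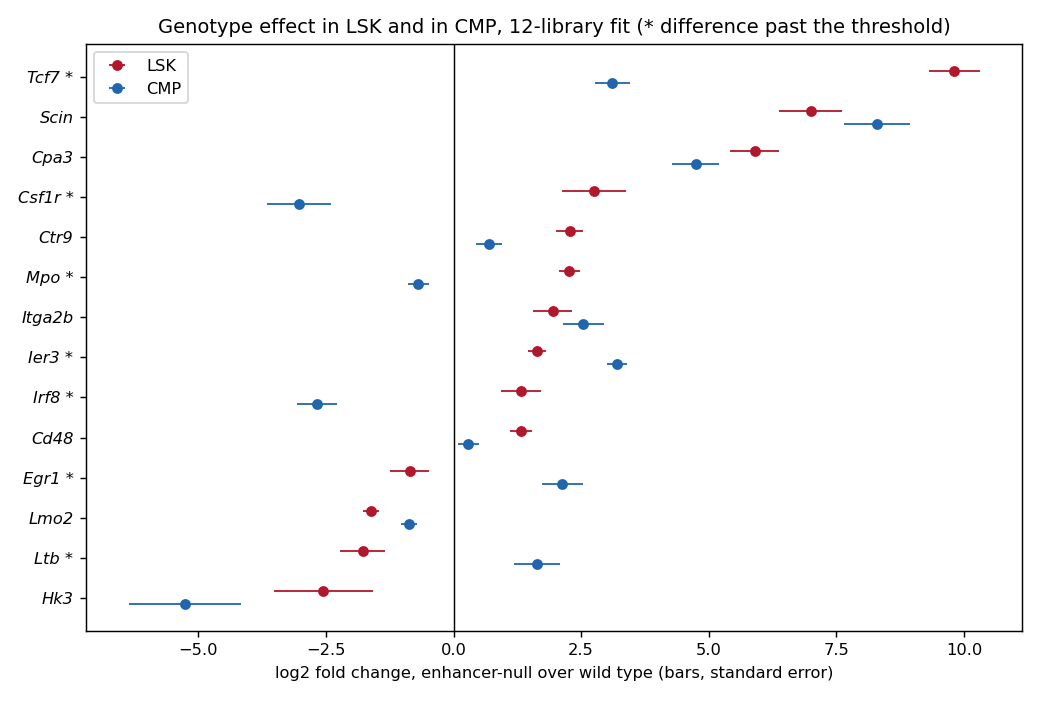
Log2 fold change, enhancer-null minus wild type, with its standard error for 14 genes in LSK and in CMP, from the fit over all 12 libraries; an asterisk marks genes whose effect differed between LSK and CMP at an adjusted p under 0.05. Tcf7 is at 9.81 in LSK and 3.11 in CMP, and Mpo, Irf8 and Csf1r are positive in LSK and negative in CMP.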

How the data were processed

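RNA from sorted mouse bone marrow cells was prepared with a SMARTer Ultra Low kit and a TruSeq v2 library and read as paired 75 bp ends, per the labels' protocols. The submitters' processing notes name TopHat2 2.0.4, TopHat, Bowtie, HTSeq and mm10; no label or header states the annotation, the counting mode or whether strand was used. Each deposited file holds raw read counts per gene symbol, which the authors had not normalised. Rows naming no gene, 37.2 to 43.7% of the LSK totals, were dropped. These are PCR-amplified reads without molecular identifiers, so intervals and floors cover counting error only.

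From the 24420 symbols, genes were kept by edgeR's filterByExpr with a minimum count of 10, scaled by TMM and tested over the 6 LSK libraries with edgeR 4.0.16 (robust quasi-likelihood, enhancer-null minus wild type, Benjamini-Hochberg threshold 0.05 over all 11681 genes; R 4.3.3). CPM are TMM-scaled. Means for the overlap measure and within-sex values used a pseudocount of 0.5 CPM. The effect in LSK against that in CMP was an interaction term over 12 libraries; 1 wild-type CMP file lists other symbols. The scripts were tested on simulated data. limma 3.58.1 (voom) and DESeq2 1.42.0 were alternatives. Replicates were checked for identity: none was a copy of another.

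Named genes are those past the threshold, the C/EBP family, sex-linked and gate genes, and up to 4 genes of each list. Others, among them Hlf, Mecom, Ndn, Procr, Irf8, Itgam, Elane, Prtn3, Gata3, Id2, Zbtb16, Cd7, Il18r1, Cd3e, Cd3d, Gzma, Prf1, Eomes, Cd14, Ly86, Siglech, Mcpt8, Fcer1a, Tpsb2, Tph1, Ms4a2, Cma1, Tpsab1, Tal1, Gata2, Erg and several members of the smaller lists, were chosen after their values were seen. The comparison and the lists were chosen with earlier results of these data known, and some lists were built around genes already known to pass. Gene positions are from a GENCODE annotation of mm10. Of the genes past the test, 1 is not reported here. LSK groups share 1 replicate number, so they cannot be paired. Across LSK and CMP, deviations of same-numbered libraries correlated at −0.0613 to 0.118.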

Additional observations from a re-analysis of the deposited data

Results flagged for a closer look

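Of the genes named, 7 had a genotype effect that differed between LSK and CMP by the interaction test over 12 libraries (edgeR, Benjamini-Hochberg over 12411 genes). The log2 fold change in LSK minus that in CMP was 6.70 for Tcf7 (adjusted p = 0.000207), 2.96 for Mpo (0.000727), 4.0 for Irf8 (0.00974), 5.77 for Csf1r (0.0192), −1.57 for Ier3 (0.0205), −2.99 for Egr1 (0.0458) and −3.41 for Ltb (0.0489). Egr1 had log2 fold changes of −0.86 in LSK and 2.13 in CMP, and Ltb of −1.78 in LSK and 1.63 in CMP. Egr1 averaged 413 ± 144 CPM in enhancer-null LSK and 748 ± 140 CPM in wild-type LSK, and 371 ± 202 CPM in enhancer-null CMP and 84.4 ± 35.5 CPM in wild-type CMP (SD, n = 3 each). Ltb averaged 38.7 ± 6.16 CPM in enhancer-null LSK and 133 ± 30.1 CPM in wild-type LSK, and 21.2 ± 9.43 CPM in enhancer-null CMP and 6.81 ± 3.18 CPM in wild-type CMP. Tcf7, Irf8 and Csf1r keep the signs given in the report.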

How the results depend on the processing

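Against 12 genes past the threshold in LSK (9 higher and 3 lower in enhancer-null), there were 45 (28 and 17) with no filter on low counts, 270 (134 and 136) with DESeq2, 51 (23 and 28) with limma voom and sample weights, 25 (23 and 2) in one fit of all 12 libraries and 3 (3 and 0) with sex as a covariate; upper quartile factors gave 5 lower. Leaving out 1 library at a time gave 1 to 21 genes, 1 to 17 higher and 0 to 4 lower. Over 997 values of 59 genes in 17 settings, 845 kept their direction and side of the threshold, 65 lost the threshold, 87 gained it and 0 changed direction. Many of these genes do not overlap between genotypes and so cannot change direction when a library is left out. The 0 therefore follows in part from which genes were named. Tcf7 passed in 16 of 17 settings; by voom its adjusted p was 0.337. Without a minimum fold, 1095 genes were higher and 1126 lower without overlap. The cause of these changes was not tested. Cebpa had 1, 0 and 15 counts in the enhancer-null LSK libraries, and the part of depth in its result was not tested.

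Against 36 genes whose effect differed between LSK and CMP (9 higher and 27 lower), DESeq2 gave 182 (69 and 113), no filter gave 60 (19 and 41) and leaving out 1 replicate gave 8 to 44 (3 to 27 higher, 4 to 17 lower). Whether the replicate numbers pair LSK with CMP libraries was not settled. Of 6 same-number correlations 1 was over 0.1, and such correlations cannot decide it. Same-numbered LSK and CMP libraries matched in sex in 6 of 6 pairs. With the replicate block 6 genes passed (2 higher and 4 lower). Of the 7 named, Tcf7, Mpo and Egr1 passed with the block, and Irf8 (edgeR adjusted p = 0.0623), Ier3 (0.117), Ltb (0.174) and Csf1r (0.192) did not.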
